A study of Homo sapiens with 6 samples.

Results

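Lipoprotein export was described through 10 genes, the assembly factors MTTP, TM6SF2 and SAR1B and the apolipoproteins APOB, APOA1, APOA2, APOC3, APOE, APOH and APOM, each found by its symbol among 26389 genes with deposited read counts. RNA was sequenced from HepG2, a human hepatocellular carcinoma line that secretes many plasma proteins. In 3 libraries, called control here, the cells had received a plasmid for the hairpin named shCtrl. In the other 3, called knockdown, the plasmid carried shTCTP, a short hairpin RNA against TCTP, the protein encoded by TPT1. All 6 samples were of the same line, grown with serum and transfected with a lipid reagent, and the labels give neither the hairpin sequences nor a selection step for cells that took up the plasmid. The comparison asked how the transcripts of lipoprotein assembly and of the carried proteins stood in the knockdown libraries.

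Hepatocytes load triglyceride onto apolipoprotein B as it enters the endoplasmic reticulum, and the particle leaves as very low density lipoprotein. MTTP is the lipid-transferring subunit of microsomal triglyceride transfer protein, which pairs with the protein disulfide isomerase P4HB, and TM6SF2 is a membrane protein needed for the bulk loading of lipid. SAR1B is the small GTPase that starts the COPII coat at the exit sites of the endoplasmic reticulum, whereas the smaller apolipoproteins are exchanged between particles in plasma or join high density lipoprotein.

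MTTP (ENSG00000138823.12) lies on GRCh38 chromosome 4, 99563761 to 99623999, plus strand, in GENCODE 29. RefSeq windows of the 250 bases before a transcription start were found for 7 of the members, 10 windows in all, on GRCh38.p14. They were searched on both strands for AGGTCA, bound by nuclear receptors, TGTTTA, the core of forkhead sites, TTAATNATTAA, the palindrome bound by HNF1 factors, TATAAA and CCAAT. MTTP has 2 windows. The upstream one, chr4:99563880-99564129 (plus strand), held none of these letters, and its GC content was 57.2%. The downstream one, chr4:99574574-99574823 (plus strand), held all 5 and had a GC content of 40.0%. Stretches of the downstream MTTP window are shown because MTTP is the member that passed the test, and those of APOA2 and APOH because they also hold forkhead letters. Capitals mark the matched motifs, and each stretch reads in the direction of transcription.
MTTP, chr4:99574574-99574706, plus strand: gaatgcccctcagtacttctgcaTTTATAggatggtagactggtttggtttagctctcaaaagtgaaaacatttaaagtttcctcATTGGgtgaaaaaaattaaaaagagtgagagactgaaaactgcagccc
MTTP, chr4:99574706-99574735, plus strand: cacctacgtTTAATCATTAAtagtgagccc
MTTP, chr4:99574771-99574800, plus strand: gtcTGACCTttccccaaagaTAAACAtgat
APOA2, chr1:161223632-161223878, minus strand: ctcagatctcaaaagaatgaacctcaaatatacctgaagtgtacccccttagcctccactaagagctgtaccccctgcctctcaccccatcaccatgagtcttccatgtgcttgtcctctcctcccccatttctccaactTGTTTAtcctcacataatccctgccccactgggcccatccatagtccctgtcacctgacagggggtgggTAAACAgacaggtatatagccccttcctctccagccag
APOH, chr17:66229423-66229665, minus strand: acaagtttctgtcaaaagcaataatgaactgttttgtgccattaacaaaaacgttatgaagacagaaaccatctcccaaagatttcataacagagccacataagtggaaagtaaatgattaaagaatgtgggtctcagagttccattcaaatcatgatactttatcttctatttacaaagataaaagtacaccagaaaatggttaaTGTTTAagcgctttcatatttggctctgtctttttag

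In the downstream MTTP window the HNF1 palindrome began 109 bases before the RefSeq start, TGACCT, the reverse complement of AGGTCA, began at 50 bases and TAAACA, the reverse complement of TGTTTA, at 33 bases. No motif overlapped another in this window. GENCODE places 117 of its 250 bases in exons, which is why that end is shown as 2 stretches of 30 bases. Of 35116 RefSeq windows, 0.0883% held the HNF1 palindrome, 12.1% AGGTCA, 11.0% TGTTTA, 10.7% TATAAA and 32.0% CCAAT on either strand. In GENCODE, 6 of 11 MTTP transcripts start within 100 bases of the upstream RefSeq start and 1 within 100 bases of the downstream one. The gene-level counts do not tell these starts apart. The window of APOM held none of the motifs, and those of TM6SF2 and SAR1B held CCAAT alone. All 250 bases of the APOM window lie in GENCODE exons, and 0 of 3 APOM transcripts start within 100 bases of its RefSeq start.

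The libraries held 25427614 to 30486409 reads assigned to genes, the fewest in knockdown library 3. The labels do not state that replicates were grown separately, and p-values therefore cover only the spread among these 6 samples, which may be technical. TPT1 stood at 2249 to 2575 CPM (reads scaled to library size, with TMM factors) in control and 1559 to 2032 CPM in knockdown, with an edgeR adjusted p of 0.396, so the labelled knockdown did not pass the test. Knockdown library 3 stood apart, with a mean correlation of 0.977 with the others against 0.986 to 0.987. The hepatocyte markers of the labelled line were abundant. Summed over 12 genes, they reached 8296 to 9219 FPKM (fragments scaled to gene length and library size) in control and 6769 to 7953 FPKM in knockdown, with SERPINA1 the highest by its mean in each group.

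All 10 members passed the filter on low counts and were among the 14197 genes tested with edgeR, of which 1.41% passed an adjusted p of 0.05 and 0.148% passed it as lower in knockdown. Of the members, 1 passed, MTTP, in the lower direction. Fitted changes were negative for 9 of 10 members, with a median log2 fold change of -0.24, against 50.4% negative and a median of -0.002 over all tested genes. Of these 9, SAR1B changed sign in 6, APOB in 5 and APOA2 in 1 of 17 alternatives, and the others kept theirs. In 2 members, MTTP and APOM, all knockdown values were below all control values, an arrangement that 7.30% of all tested genes showed.

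**Figure D1:**
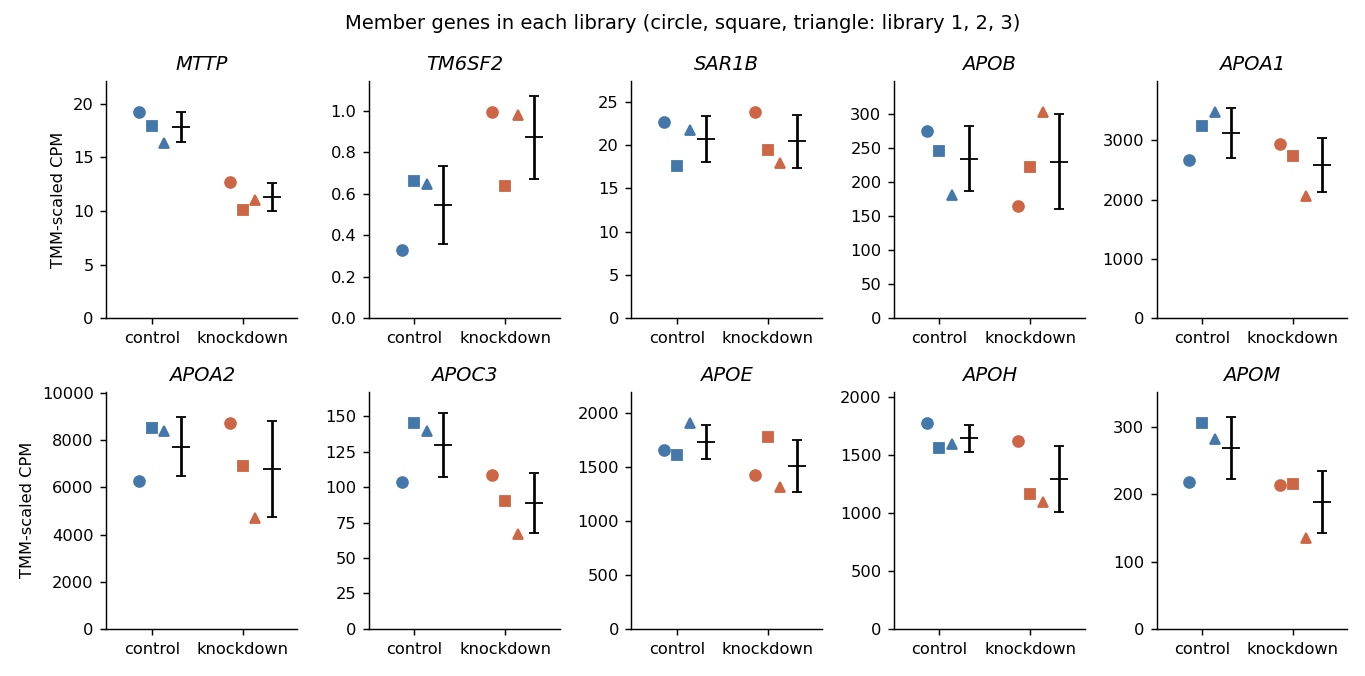
TMM-scaled CPM of each of the 10 genes on a linear axis from 0, with 1 point per library (circle, square and triangle for libraries 1, 2 and 3), beside the mean and SD of the 3 control and 3 knockdown libraries. MTTP separates with control at 16.4 to 19.2 CPM and knockdown at 10.1 to 12.7 CPM, while APOB spans 165 to 303 CPM within the knockdown group alone.

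The transcript of MTTP fell to 63.3% of control. Control libraries 1, 2 and 3 gave 19.2, 17.9 and 16.4 CPM, and knockdown libraries 1, 2 and 3 gave 12.7, 10.1 and 11.0 CPM. The groups did not overlap, and the highest knockdown CPM was that of library 1. By deposited FPKM the knockdown libraries gave 2.39, 1.98 and 2.53, the highest in library 3, the library that stood apart. Behind the CPM values stood 586, 516 and 456 reads for control and 370, 301 and 327 for knockdown. Group means were 17.8 ± 1.43 CPM in control and 11.3 ± 1.29 CPM in knockdown (SD, n = 3 each). The log2 fold change was -0.66 (SE 0.15, 95% confidence interval -0.99 to -0.33), with an edgeR quasi-likelihood adjusted p of 0.0434. By p-value MTTP ranked 184 of the tested genes, close to the limit of the 200 that passed. TRMT10A, on the opposite strand and overlapping MTTP, held 10.4% as many reads and had an estimate of 0.53 (edgeR adjusted p = 0.507). In bulk RNA a lower level in each cell cannot be told apart from fewer cells that carry the transcript.

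The call on MTTP depended on the libraries, the tool and the model, while its sign did not in any of the 17 alternatives run. With the replicate number as a block in the edgeR model the adjusted p was 0.124. Without control library 1, 2 or 3 the edgeR adjusted p became 0.166, 0.216 or 0.102, and without knockdown library 2 it became 0.176. Limma voom gave an adjusted p of 0.0501, and limma on log2 FPKM gave 0.317 or 0.314, with pseudocounts of 1 and 0.1. With these pseudocounts the log2 fold change was -0.41 and -0.54, so its size moved with the pseudocount. A pseudocount of 1 is large beside the 1.98 to 3.85 FPKM of MTTP. The median of all genes in these 2 fits was 0.075 and 0.086. Without knockdown library 3 the gene still passed, at a log2 fold change of -0.64 and an edgeR adjusted p of 0.0249.

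**Figure D2:**
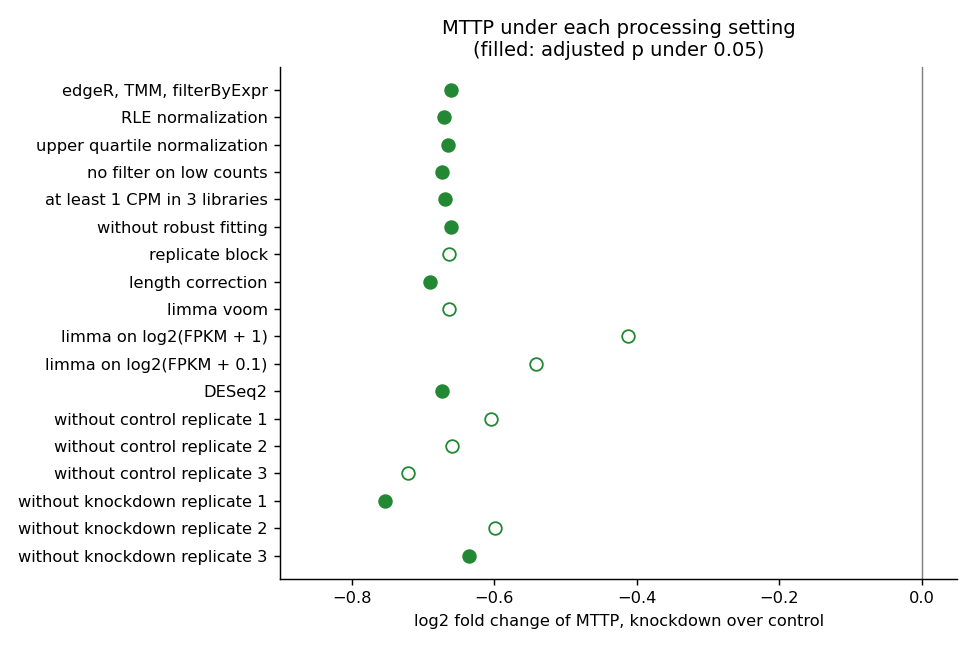
Log2 fold change of MTTP (x axis, knockdown over control) for the reported fit and 17 alternatives (y axis), filled where the adjusted p was under 0.05. All points lie below 0, between -0.75 and -0.41, and open points include each fit that lacks a control library.

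TM6SF2 and SAR1B did not pass the test. TM6SF2 (ENSG00000213996.12, GRCh38 chromosome 19, 19264364 to 19273391, minus strand) was the least abundant member, with 0.328, 0.659 and 0.646 CPM in control and 0.993, 0.639 and 0.979 CPM in knockdown. Its groups overlapped at knockdown library 2, and only 10 to 29 reads per library stood behind these values. Its estimate of 0.68 on the log2 scale (SE 0.39, 95% confidence interval -0.15 to 1.51) had an edgeR adjusted p of 0.553, and it was 0.41 without control library 1. AC138430.1, a transcript on the same strand that overlaps TM6SF2, held 105% as many reads over the 6 libraries, so the split of reads between them is uncertain.

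SAR1B (ENSG00000152700.13, chromosome 5, 134601144 to 134649271, minus strand) stood at 22.7, 17.6 and 21.7 CPM in control and 23.8, 19.5 and 17.9 CPM in knockdown. The 2 groups covered nearly the same range. Its log2 fold change was -0.02 (SE 0.16, 95% confidence interval -0.35 to 0.31, edgeR adjusted p = 0.980), and the sign depended on which library was left out. SEC24A, a COPII coat gene on the opposite strand that overlaps SAR1B, held 47.9% as many reads, and whether the authors' counting used strand is not given in the sources used here.

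APOB, the structural protein of very low density lipoprotein, lies on chromosome 2, 21001429 to 21044073, minus strand (ENSG00000084674.13). It stood at 276, 245 and 182 CPM in control and 165, 222 and 303 CPM in knockdown. The lowest and the highest value of the 6 were both knockdown libraries, 1 and 3. Means were 234 ± 48.0 and 230 ± 69.4 CPM (SD, n = 3 each), and the fitted log2 change was -0.03 (SE 0.20, 95% confidence interval -0.44 to 0.39, edgeR adjusted p = 0.980). The interval reaches from -0.44 to 0.39, so with this spread neither a moderate decrease nor a moderate increase is excluded. Without knockdown library 3 the log2 fold change was -0.26, and without knockdown library 1 it was 0.16.

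The ratio of MTTP to APOB reads needs no scaling between libraries. Control libraries 1, 2 and 3 held 69.6, 72.9 and 90.0 MTTP reads per 1000 APOB reads, and the knockdown libraries 76.7, 45.5 and 36.4. The groups overlapped at knockdown library 1, in which both transcripts were low. Group means were 77.5 ± 10.9 and 52.9 ± 21.1 (SD, n = 3 each), and the log2 difference of -0.62 was not tested. With knockdown library 3 left out it came to -0.38, and with knockdown library 1 left out to -0.92.

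APOA1 and APOA2, the main proteins of high density lipoprotein, overlapped between groups. APOA1 (ENSG00000118137.9, chromosome 11, 116835751 to 116837950, minus strand) gave 2659, 3232 and 3476 CPM in control and 2930, 2742 and 2068 CPM in knockdown, and the log2 fold change was -0.28 (SE 0.19, edgeR adjusted p = 0.643). APOA2 (ENSG00000158874.11, chromosome 1, 161222292 to 161223631, minus strand) gave 6267, 8512 and 8390 CPM in control and 8742, 6924 and 4692 CPM in knockdown, and the log2 fold change was -0.19 (SE 0.23, edgeR adjusted p = 0.832). In both genes knockdown library 3 was the lowest of the 6, and APOA2 was highest in knockdown library 1. Without knockdown library 3 the change of APOA2 was 0.03 and that of APOA1 -0.13, and without knockdown library 1 that of APOA2 was -0.41.

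APOC3, an inhibitor of lipoprotein lipase and of remnant uptake, lies beside APOA1 on chromosome 11, 116829706 to 116833072, plus strand (ENSG00000110245.11). It gave 104, 145 and 140 CPM in control and 109, 90.3 and 66.7 CPM in knockdown. Control library 1 fell inside the knockdown range, below knockdown library 1. The log2 fold change was -0.55 (SE 0.17, 95% confidence interval -0.91 to -0.18), with an unadjusted p of 0.00586 and an edgeR adjusted p of 0.172. Without knockdown library 1 the edgeR adjusted p was 0.0482, and without knockdown library 3 the log2 fold change was -0.37 (edgeR adjusted p = 0.317).

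APOM, a lipocalin of high density lipoprotein that carries sphingosine 1-phosphate, lies on chromosome 6, 31652416 to 31658210, plus strand (ENSG00000204444.10). It gave 218, 306 and 281 CPM in control and 213, 216 and 135 CPM in knockdown. The groups did not overlap, but control library 1 stood just above knockdown library 2. The log2 fold change was -0.51 (SE 0.18, 95% confidence interval -0.89 to -0.13), with an edgeR adjusted p of 0.239, and it was -0.32 without knockdown library 3. BAG6, on the opposite strand and overlapping APOM, held 150% as many reads and had a log2 fold change of -0.12 (edgeR adjusted p = 0.805).

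APOE, the ligand for uptake of remnants by the LDL receptor family, lies on chromosome 19, 44905754 to 44909393, plus strand (ENSG00000130203.9). It gave 1661, 1615 and 1910 CPM in control and 1429, 1781 and 1318 CPM in knockdown. Its log2 fold change was -0.20 (SE 0.17, edgeR adjusted p = 0.740), and the groups overlapped at knockdown library 2. The estimate came to -0.34 without that library, -0.10 when knockdown library 3 was left out and -0.12 without control library 3. AC011481.3, on the same strand and overlapping APOE, held 7.48% as many reads. APOH, the phospholipid-binding beta-2-glycoprotein I, lies on chromosome 17, 66212033 to 66256525, minus strand (ENSG00000091583.10). It gave 1777, 1556 and 1592 CPM in control and 1615, 1159 and 1097 CPM in knockdown, and the log2 fold change was -0.35 (SE 0.18, edgeR adjusted p = 0.492). Only knockdown library 1 reached into the control range of APOH, and without it the log2 fold change was -0.54.

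**Figure D3:**
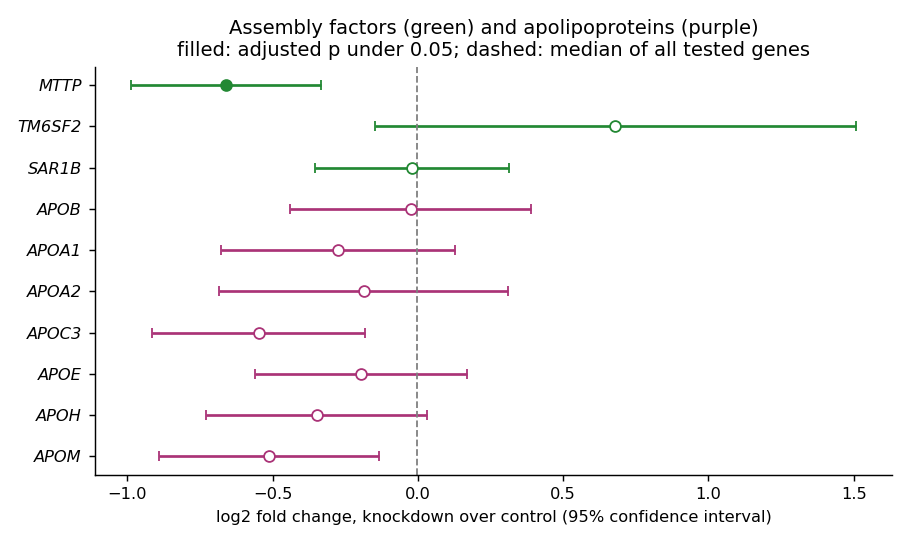
Log2 fold change, knockdown over control, with its 95% confidence interval from edgeR for the 3 assembly factors (green) and 7 apolipoproteins (purple), filled where the adjusted p was under 0.05, beside the median of all tested genes (dashed line). MTTP is the 1 filled point at -0.66, the intervals of APOC3 and APOM also lie below 0, and TM6SF2 has the widest interval, -0.15 to 1.51.

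The assembly factors differed in sign. Their log2 fold changes were -0.66, 0.68 and -0.02 for MTTP, TM6SF2 and SAR1B, with a median of -0.02, and 1 of 3 passed. Among the apolipoproteins 0 of 7 passed, 7 of 7 changes were negative and the median was -0.28. By unadjusted p from edgeR, 2 of 7, APOC3 and APOM, were under 0.05, as were 11.1% of all tested genes. DESeq2, voom and both log2 FPKM fits called 0 of 7. With no filter on low counts edgeR called APOC3 (adjusted p = 0.0154) and APOM (adjusted p = 0.0408), and with the length correction or without knockdown library 1 it called APOC3. The difference of the medians, assembly factors minus apolipoproteins, was 0.26, and 0.13 without control library 2. With so few genes it rests on the middle value, SAR1B, and it was -0.06 where a filter of 1 CPM left TM6SF2 untested and -0.05 with limma on log2 FPKM at a pseudocount of 0.1. Taken library by library against the control mean, the difference was 0.33, -0.08 and -0.04 in control and 0.45, 0.10 and 0.39 in knockdown. Control library 1 thus lay inside the knockdown range.

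Levels between genes were compared per length, as FPKM in control. APOA2 was the highest at 12455 ± 1544 FPKM (SD, n = 3), the gene of rank 6 in the table. APOA1 followed at 2017 ± 173 FPKM, then APOE at 1319 ± 85.8 and APOH at 1293 ± 157 FPKM, and APOE and APOH did not differ beyond their spread. APOC3 at 190 ± 26.1 FPKM and APOM at 149 ± 20.6 FPKM overlapped in their library values. APOB at 14.7 ± 3.70 FPKM stood far below the smaller apolipoproteins. MTTP at 3.39 ± 0.445 FPKM was above SAR1B at 2.34 ± 0.370 FPKM in each control library, whereas in knockdown libraries 1 and 2 SAR1B was the higher, and TM6SF2 was last at 0.330 ± 0.104 FPKM. The 10 transcripts together took 1.13% to 1.50% of reads, the least in knockdown library 3.

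Gene length moved with the libraries and with several members. Relative to the control mean, the longest 10% of tested genes (7690 bp or more) had medians of 0.15, -0.02 and -0.13 on the log2 scale in control and -0.04, -0.002 and 0.27 in knockdown. The shortest 10% (up to 1158 bp) had medians of -0.11, 0.04 and 0.09 in control and 0.07, 0.06 and -0.26 in knockdown. Knockdown library 3 thus held relatively more reads of long genes and fewer of short ones, and control library 1 leaned the same way by less.

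APOB, with a length of 15465 bp implied by its reads and FPKM, deviated by 0.26, 0.09 and -0.34 in control and by -0.48, -0.05 and 0.39 in knockdown. The median of the 6 other apolipoproteins, the longest of them APOM at 1732 bp, deviated by -0.26, 0.11 and 0.13 in control and by -0.16, -0.24 and -0.65 in knockdown. In control library 1 and knockdown library 3, APOB was high while the short apolipoproteins were low. MTTP, at 5078 bp, deviated by 0.11, 0.009 and -0.12 in control, in the same order as APOB and the longest genes. In the knockdown libraries it stood at -0.49, -0.81 and -0.68 and stayed low in library 3, where APOB was high.

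**Figure D4:**
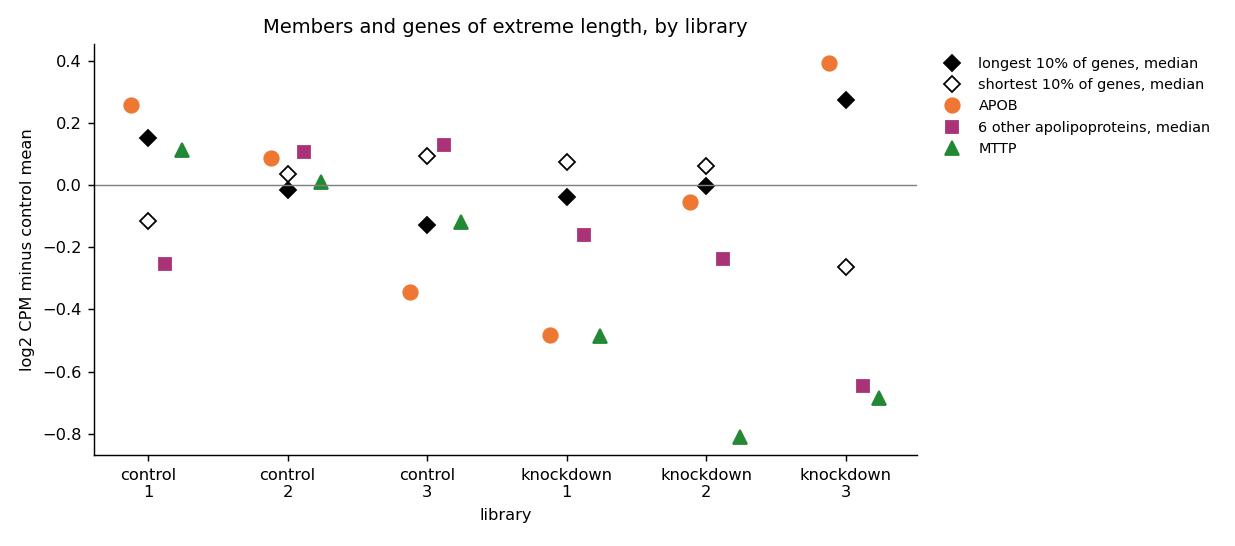
Deviation from the control mean in log2 CPM (y axis) for each library (x axis), shown for APOB, MTTP, the median of 6 other apolipoproteins, and the medians of the longest and shortest 10% of tested genes. In knockdown library 3 APOB is at 0.39 and the longest 10% at 0.27, opposite to the short apolipoproteins at -0.65 and the shortest 10% at -0.26.

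After a correction for length by a loess curve per library, MTTP gave a log2 fold change of -0.69 (edgeR adjusted p = 0.0112). APOC3 then passed as well, at -0.54 (edgeR adjusted p = 0.0409), with 108, 144 and 132 CPM in control and 101, 82.9 and 80.1 CPM in knockdown and no overlap. APOM did not pass, at -0.50 (edgeR adjusted p = 0.0945). APOB moved to -0.14 with an edgeR adjusted p of 0.730, and its values, 258, 253 and 211 CPM against 174, 223 and 257 CPM, still overlapped.

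The other apolipoproteins had mostly negative estimates. Of 11 tested with edgeR 0 passed, 3 had an unadjusted p under 0.05 (11.1% over all tested genes), 10 were negative and the median log2 fold change was -0.38. APOA5, an activator of lipoprotein lipase, averaged 28.9 ± 5.96 CPM in control against 17.9 ± 4.38 CPM in knockdown (SD, n = 3 each), a log2 difference of -0.70 (edgeR adjusted p = 0.0915). APOL1, a trypanolytic factor of high density lipoprotein, stood at 81.6 ± 25.7 and 50.5 ± 21.1 CPM (log2 fold change -0.69, edgeR adjusted p = 0.247). In both genes the groups overlapped, APOA5 at knockdown library 1 and APOL1 at knockdown library 2. APOA5 passed with DESeq2 (adjusted p = 0.0335) and, in edgeR, with no filter (adjusted p = 0.00186), with the length correction (adjusted p = 0.0349) and without knockdown library 1 (adjusted p = 0.0150). APOL1 passed in edgeR with no filter (adjusted p = 0.0039) and without knockdown library 2 (log2 fold change -1.10, adjusted p = 0.0243), and its estimate was -0.42 without control library 1. DESeq2 called 1 of the 11 (290 of 14106 over all genes), and voom and both log2 FPKM fits called 0. Without knockdown library 3 the median of these 11 genes was -0.18.

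The machinery around MTTP and SAR1B showed no call in either direction, by edgeR, DESeq2, voom or log2 FPKM, and no unadjusted p under 0.05 by edgeR. Of 20 tested genes of endoplasmic reticulum exit and COPII, 0 passed, 10 were negative and the median was -0.01, with SEC24D, a cargo adaptor, at -0.25 (edgeR adjusted p = 0.597) and SEC23B, an inner coat subunit, at 0.19 (edgeR adjusted p = 0.632). Of 8 folding factors 0 passed and the median was -0.08. P4HB, the partner of MTTP in the transfer protein, was at -0.06. The chaperone HSPA5 was at -0.27 (edgeR adjusted p = 0.562) and the disulfide isomerase PDIA6 at -0.22 (edgeR adjusted p = 0.627). Without control library 1 SEC24D, HSPA5 and PDIA6 stood at -0.12, -0.16 and -0.10.

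Genes that supply lipid to the particle did not pass either, with 0 of 25 by edgeR, DESeq2, voom and log2 FPKM, 3 at an unadjusted edgeR p under 0.05, near the 11.1% of all tested genes, and a median of -0.05. ACSL5, which activates fatty acids, averaged 63.0 ± 6.42 CPM in control against 85.5 ± 4.46 CPM in knockdown without overlap (SD, n = 3 each, edgeR adjusted p = 0.133). AGPAT2, an acyltransferase of glycerolipid synthesis, stood at 34.9 ± 2.40 and 26.7 ± 3.80 CPM, also without overlap (edgeR adjusted p = 0.271). Both differences exceeded the spread within groups, but neither passed over all genes. Of the 25 genes 3 lay lower without overlap, where 7.30% of all tested genes did. The 2 that lay higher have no such share beside them, as it was not counted over all genes.

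Among 17 tested genes of lipoprotein remodelling and uptake, 0 passed by edgeR, 4 had an unadjusted p under 0.05 (11.1% over all tested genes), 12 were negative and the median was -0.10. DESeq2 called 1 gene of this list (290 of 14106 over all genes), and voom and log2 FPKM called 0. LCAT, which esterifies cholesterol on high density lipoprotein, averaged 26.2 ± 2.59 CPM in control against 35.3 ± 3.88 CPM in knockdown without overlap (SD, n = 3 each), a log2 difference of 0.43 (edgeR adjusted p = 0.190). Of the 17 genes 2 lay lower without overlap, as did 7.30% of all tested genes. Another 2 lay higher without overlap, a direction for which the share over all genes was not counted.

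Transcription factors of the hepatic lipoprotein genes showed no call among 27 tested by edgeR, DESeq2, voom or log2 FPKM and no unadjusted edgeR p under 0.05, with 15 negative and a median of -0.09. The smallest p-values belonged to forkhead factors, FOXA3 at 0.27 (edgeR adjusted p = 0.494) and FOXA2 at 0.25 (edgeR adjusted p = 0.537). Their groups overlapped, and both estimates were positive. MTTP, APOA2 and APOH, which have a window with forkhead letters, had negative estimates. So did APOM, APOE and SAR1B, whose windows hold no forkhead letters, while TM6SF2, also without them, had a positive one. With 9 of 10 members negative and windows for only 7, signs could hardly separate members with forkhead letters from those without. A link to these letters was not tested. No binding was measured in these data.

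Hepatocyte markers had negative estimates, as the apolipoproteins did. Of 12 markers 0 passed by edgeR, and 4 had an unadjusted p under 0.05 (11.1% over all tested genes). DESeq2 called 2 of the 12 (290 of 14106 over all genes), and voom and log2 FPKM called 0. All 12 were negative, 6 had knockdown libraries entirely below control (7.30% over all tested genes), and the median log2 fold change was -0.32. Without knockdown library 3, 11 of the 12 were negative and the median was -0.29. Their part in the lower apolipoprotein values was not tested. Of 8 enterocyte markers 4 had FPKM values, 3 of them under 1 FPKM in every library, and the summed 31.2 to 35.9 FPKM in control and 26.9 to 35.1 FPKM in knockdown came almost wholly from VIL1. Of the fibroblast markers 4 had FPKM values, and their sum was 1.87 to 2.28 FPKM in control and 1.91 to 3.0 FPKM in knockdown, with PDGFRB the highest. The leukocyte sum of 482 to 598 FPKM in control and 429 to 552 FPKM in knockdown was nearly all LYZ. Of 5 tested leukocyte genes 3 had negative and 2 positive estimates, and the median log2 fold change was -0.23. Of these 5 genes 1 passed as higher, as did 179 of the 14197 tested genes. It was ITGAM, named after its value was seen, at a log2 fold change of 1.54 (edgeR adjusted p = 0.0375) from a mean of 0.658 CPM.

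Likeness to MTTP was taken as Pearson's r of log2 CPM over the 6 libraries, which share the group difference and, within each library, depth and length trend. Among 7037 genes of at least 10 mean CPM, 87 reached an r of 0.9. Among the highest were RNASE4 at 0.992, SEC22B at 0.987, PRUNE at 0.982 and NDRG3 at 0.979. RNASE4 is a secreted ribonuclease and SEC22B a SNARE of transport between endoplasmic reticulum and Golgi. The log2 fold changes of these 4 genes ran from -0.41 for RNASE4 to -0.15 for NDRG3, none past the threshold.

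Among the members, APOH came nearest to MTTP at an r of 0.854, and APOC3 stood at 0.710 and APOB at 0.050. Among the short apolipoproteins r ran from 0.864 to 0.970 for the pairs of APOA1, APOA2, APOC3 and APOM and from 0.316 to 0.742 for pairs with APOE or APOH, while APOB and APOA2 ran opposite at -0.817. Whether gene length accounts for these pairs was not tested.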

How the data were processed

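For each of 6 libraries the authors deposited a read count and an FPKM value per gene. Per the labels' protocols, these were directional poly(A) libraries read as 150-bp pairs. The submitters' processing notes name GRCh38, bcl2fastq, TopHat2 and edgeR. The annotation, the counter and its use of strand are not given in the labels or files used here. Per-gene lengths were derived from the deposited counts and FPKM values (at least 5 reads and 0.1 FPKM) and covered 99.1% of tested genes.

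Counts were tested with the edgeR 4.0.16 quasi-likelihood test (R 4.3.3, filterByExpr, TMM, robust, group as the only term), with Benjamini-Hochberg adjustment over all 14197 tested genes and a threshold of 0.05. Log2 CPM for correlations used a prior count of 2, and the loess span was 0.3. The procedure was tested on simulated data. Alternatives used limma 3.58.1, DESeq2 1.42.0, other normalizations and filters, log2 FPKM with pseudocounts, the length correction, a block for the replicate number and libraries left out. Depth was 25427614 to 30486409 reads per library. No pair of libraries within a group agreed within sampling noise (13.9 to 85.7 chi-square units per degree of freedom).

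The members and lists were chosen with earlier results of these data known. Of 163 list entries 154 were matched. All members were named, from each pathway list the genes past the threshold or else the 2 of smallest p, and the 5 genes most like MTTP. Results that this rule would name for 2 genes are not reported here. P4HB and the genes overlapping a member were named beside them after their values were seen. Positions come from GENCODE 29, and promoter sequences from RefSeq (GRCh38.p14). Figures were drawn with matplotlib 3.10.9.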

Additional observations from a re-analysis of the deposited data

How the results depend on the processing

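The log2 fold change of MTTP was negative under all 17 alternatives. With the replicate block it was -0.66 (edgeR adjusted p = 0.124), with voom -0.66 and with log2 FPKM -0.41 (pseudocount 1) and -0.54 (pseudocount 0.1), none past the threshold, and with single libraries left out it ran from -0.75 to -0.60. The same 4 fits called 0 members, no filter called 3, the length correction 2, and fits without 1 library 0 to 2. Same-numbered libraries had correlations of deviations of -0.232, 0.001 and -0.200, against -0.181 to 0.295 for libraries of different number. With 3 libraries per group these values cannot decide whether a number marks a shared culture or day. The replicate block gave 130 calls over all genes, 111 of them higher. Over all genes no filter gave 317 calls. Lower calls numbered 71 with no filter, 46 with the length correction, 58 with DESeq2, and 8 and 7 with log2 FPKM at pseudocounts of 1 and 0.1. Fits without 1 library gave 79 to 343 calls, 76 to 300 higher and 3 to 43 lower. The difference of the medians was -0.065 with a filter of 1 CPM, where TM6SF2 was not tested, and 0.000488 and -0.052 with log2 FPKM at pseudocounts of 1 and 0.1. The log2 FPKM fits moved the median of all genes to 0.075 and 0.086. In them SAR1B was 0.058 and 0.081, and APOB 0.056 and 0.057. With single libraries left out SAR1B ran from -0.15 to 0.07, APOB from -0.26 to 0.16 and APOA2 from -0.41 to 0.029. The cause of these changes was not tested, apart from the fewer genes or libraries in a fit. Depth limits TM6SF2 most, at 10 to 29 reads per library.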
